A study of Mus musculus with 2 samples.

Results

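The axonemal dynein and cilium structure genes are the genes of the motile cilium and of the sperm tail that carry the symbols Dnah, Dnai or Dnaic, Dnal, Cfap, Rsph, Tekt or Drc, or Spag with a digit. By symbol alone, 75 of the 22180 genes that the array table named were members. Their levels were measured in epididymal fat, the fat pad beside the testis and epididymis, of male A/J-12SM and male A/J mice. A/J-12SM mice carry SM/J chromosome 12 on an otherwise A/J genome (a consomic strain), and A/J is the background strain. All mice ate a high-fat diet from 6 to 13 weeks of age and were fasted for 4 h before collection. RNA of 3 mice per strain was pooled on 1 array, so each strain has 1 value per gene, with no replicate, no error and no test. "Higher" and "lower" below refer to these 2 arrays.

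A motile cilium or flagellum is built on an axoneme, a ring of doublet microtubules around a central pair. Rows of axonemal dynein motors, the outer and the inner arms, make the doublets slide, while radial spokes, nexin links and the central apparatus turn that sliding into bending. Such axonemes occur in sperm and in multiciliated epithelia, and adipocytes are not known to build them. Adipocyte markers were read first, which can show fat on both arrays but not what other tissue each pool held. The adipocyte markers Adipoq, Plin1, Lep, Cidec, Fabp4 and Retn had levels between 10.87 and 12.43 with A/J-12SM and between 10.32 and 12.45 with A/J. Adipoq (0.93), the gene of adiponectin, was the one of these 6 that differed by more than 0.75.

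Many of these genes were lower with A/J-12SM, among them all 11 dynein heavy chains, 8 of which were lower by more than 0.75. Every level is an RMA value (log2 scale), and a difference is the A/J-12SM level minus the A/J level. A difference past 0.75 in size, the limit at which the study selected genes, is called past the limit. Of the 75 members, 28 (37.3%) were lower by more than 0.75, beside 4.28% of all genes. None of the 75 was higher by more than 0.75, which 2.86% of all genes were. The members had a median difference of -0.41, beside 0.03 over all genes, and 60 of them were lower by any amount, as were 46.3% of all genes. Among the 3543 genes whose mean level lay between the quartiles of the members (3.74 and 4.69), 7.11% were lower by more than 0.75.

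The members were mostly dim. Their levels had a median of 3.89 with A/J-12SM and 4.47 with A/J, whereas the median over all genes was 4.99 on both arrays. A level of 6 was reached by 6 members on the A/J-12SM array and by 10 on the A/J array. Without a detection call, such low levels may be background in part, and how large their differences are is uncertain. RMA values are never 0, so a gene that is not expressed also has a level. In RNA from a whole tissue, fewer cells of a type and less RNA per cell cannot be told apart.

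**Figure D1:**
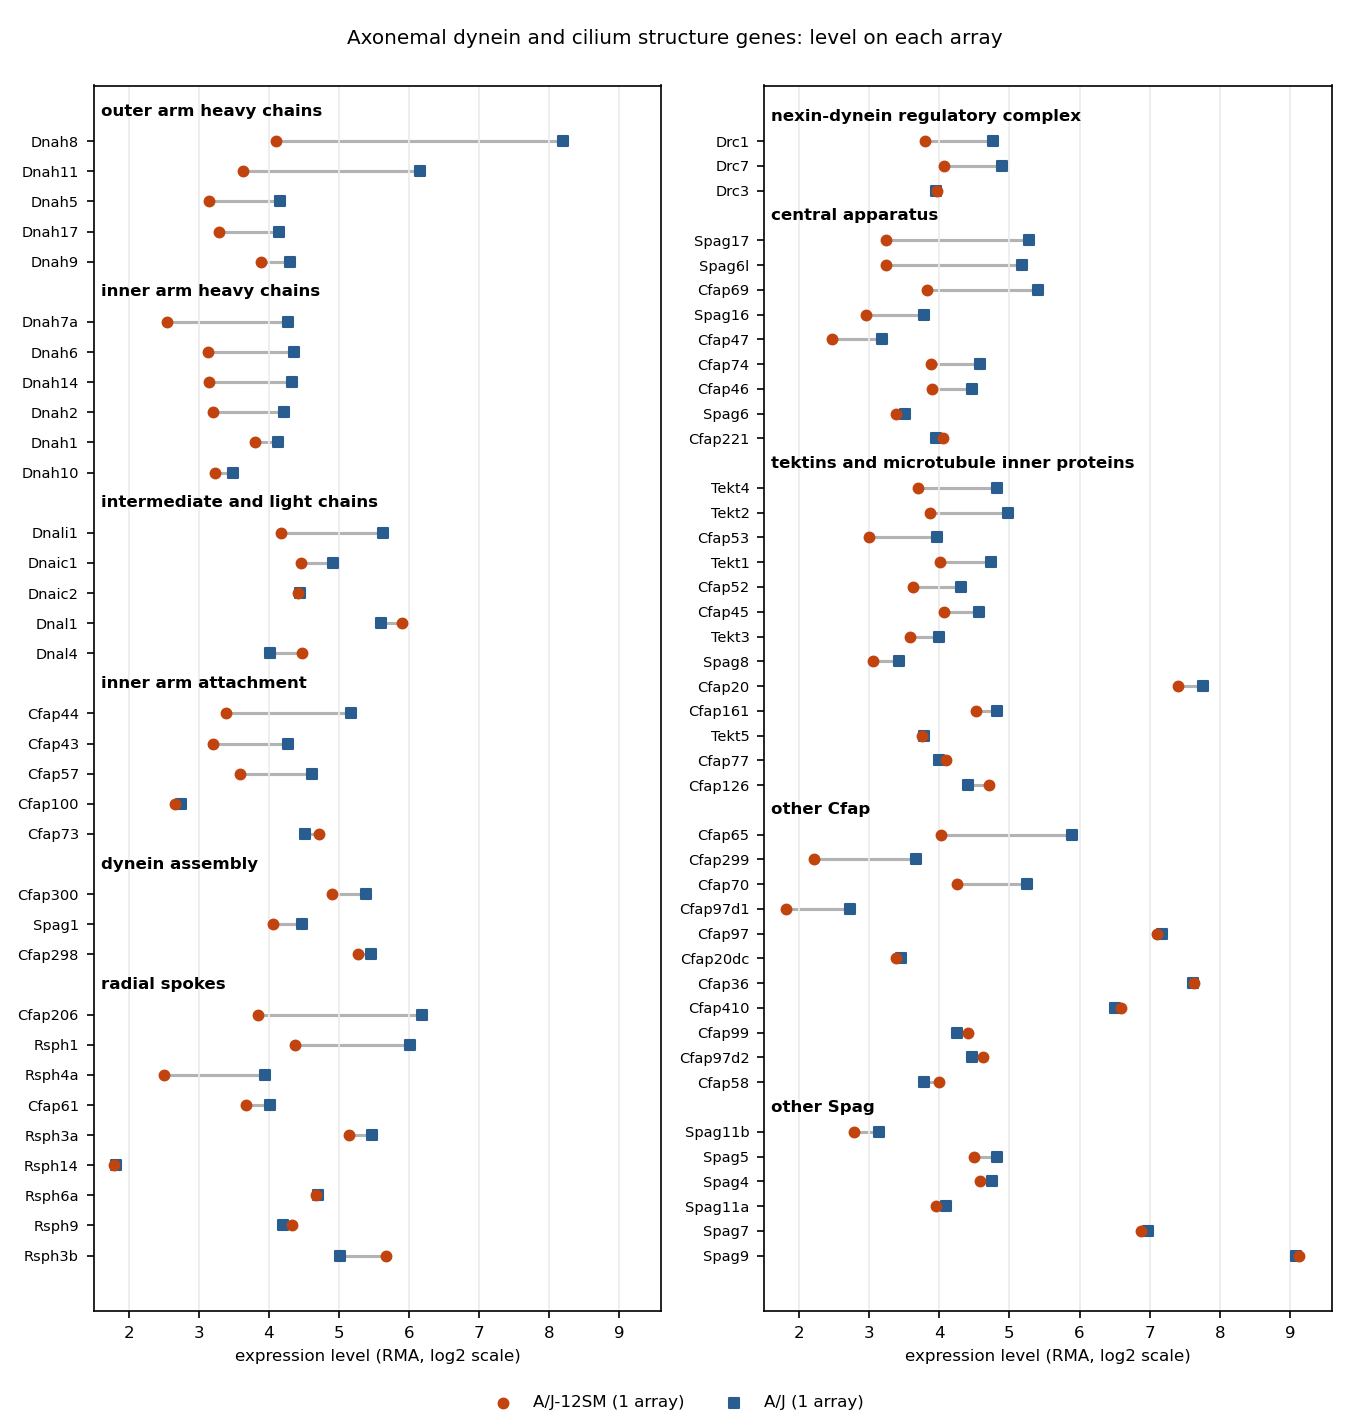
Level of each of the 75 members (x axis, RMA log2 scale) on the A/J-12SM array (circles) and the A/J array (squares), 1 array per strain, with members grouped by role and sorted by difference. The longest line is that of Dnah8 (4.10 with A/J-12SM and 8.20 with A/J), and the pairs of Spag9, Cfap36 and Cfap97 nearly coincide.

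Ciliary genes are known to be switched on by RFX factors, which bind X-box elements, by FOXJ1 and, in spermatids, by the CREM factor, which binds cyclic AMP response elements (CRE). The promoter windows of members that were lower, and of one that was not, are therefore shown to let the letters be read beside the levels. Each window runs from 250 bases before to 50 bases after a start site that the promoter table gives, 5′ to 3′ (RefSeq, GRCm38.p6). That site can lie inside the annotated span of the gene. It lay 17041 bases inside it for Tekt4 and at most 57 bases inside it for the other windows shown. Capitals mark matches, on either strand, to the X-box half-site GTTGCC, a spaced X-box (GTNNCC and GNNAC with 3 bases between), which can contain the half-site, the CRE TGACGTCA, the FOXJ1-type GTAAACA or TATAAA. Dnah8 had the largest difference of the members, Cfap206 had the largest difference of the radial spoke group, and Cfap44, Spag6l and Tekt4 were lower members with an X-box match. Cfap298 (-0.18) is the member that was not past the limit.
Dnah8 (chr17:30626686-30626985, plus strand): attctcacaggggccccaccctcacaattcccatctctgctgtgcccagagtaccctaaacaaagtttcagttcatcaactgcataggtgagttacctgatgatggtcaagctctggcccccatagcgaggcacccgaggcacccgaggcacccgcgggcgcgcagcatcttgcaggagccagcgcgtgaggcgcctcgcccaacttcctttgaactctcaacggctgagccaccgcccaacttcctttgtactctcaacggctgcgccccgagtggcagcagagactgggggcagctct
Cfap206 (chr4:34730157-34730456, minus strand): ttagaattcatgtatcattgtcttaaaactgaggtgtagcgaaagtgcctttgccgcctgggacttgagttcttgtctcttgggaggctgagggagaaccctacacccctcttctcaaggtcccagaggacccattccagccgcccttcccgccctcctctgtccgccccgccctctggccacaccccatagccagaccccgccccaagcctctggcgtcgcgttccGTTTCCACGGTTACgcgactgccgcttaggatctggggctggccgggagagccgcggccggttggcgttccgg
Cfap44 (chr16:44394549-44394848, plus strand): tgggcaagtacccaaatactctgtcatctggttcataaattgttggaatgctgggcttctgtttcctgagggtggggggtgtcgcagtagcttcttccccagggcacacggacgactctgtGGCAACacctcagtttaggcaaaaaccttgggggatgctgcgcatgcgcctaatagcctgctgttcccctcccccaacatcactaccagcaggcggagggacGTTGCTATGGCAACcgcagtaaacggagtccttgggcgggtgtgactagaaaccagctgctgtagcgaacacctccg
Spag6l (chr16:16829314-16829613, minus strand): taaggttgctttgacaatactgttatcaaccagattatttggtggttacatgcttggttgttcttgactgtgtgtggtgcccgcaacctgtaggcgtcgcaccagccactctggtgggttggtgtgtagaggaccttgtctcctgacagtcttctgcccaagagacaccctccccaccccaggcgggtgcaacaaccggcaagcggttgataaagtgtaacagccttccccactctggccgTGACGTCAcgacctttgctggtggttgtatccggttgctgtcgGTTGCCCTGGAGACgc
Tekt4 (chr17:25471340-25471639, plus strand): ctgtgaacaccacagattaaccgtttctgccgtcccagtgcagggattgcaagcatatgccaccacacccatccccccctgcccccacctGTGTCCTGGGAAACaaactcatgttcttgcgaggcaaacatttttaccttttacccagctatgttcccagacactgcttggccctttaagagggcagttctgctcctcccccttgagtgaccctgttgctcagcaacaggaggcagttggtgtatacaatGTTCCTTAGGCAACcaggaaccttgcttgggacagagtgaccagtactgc
Cfap298 (chr16:90934800-90935099, minus strand): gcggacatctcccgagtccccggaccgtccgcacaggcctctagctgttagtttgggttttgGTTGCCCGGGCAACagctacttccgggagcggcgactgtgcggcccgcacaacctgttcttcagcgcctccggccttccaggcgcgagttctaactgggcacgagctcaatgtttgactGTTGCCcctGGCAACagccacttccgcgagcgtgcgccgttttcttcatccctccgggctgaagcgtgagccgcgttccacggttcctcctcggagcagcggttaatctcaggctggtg

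The Dnah8 window held none of the 5 motifs. In Cfap44 the spaced X-box read GTTGCTATGGCAAC (a match on the opposite strand), and Spag6l held a CRE and a spaced X-box together. Promoter windows were given for 65 members, in 73 windows, of which 16 had their start site over 1000 bases inside the gene's annotated span. The spaced X-box, whose letters were chosen after the windows had been read, was present in 26.0% of the members' windows and in 4.62% of all 32851 promoter windows. The half-site was present in 34.2% of the members' windows and 12.5% of all windows. Members that were lower past the limit and members that were not had half-site shares of 32.0% (25 windows) and 35.4% (48 windows), and spaced X-box shares of 32.0% and 22.9%. The CRE was in 3 of the 73 windows (4.11%, against 1.79% of all), the FOXJ1-type motif in 4 (5.48%, against 3.65%) and the TATA box in 3 (4.11%, against 13.6%). A match describes letters only, and these shares were not tested.

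The outer arm heavy chains, the motors that power the beat, were lower in all 5 cases, 4 of them past the limit. Beside the count of each role, here and below, 4.28% of all genes were lower past the limit. Among genes with a mean level between the quartiles of the members, that share was 7.11%. Dnah8, the outer arm heavy chain of the sperm tail (chromosome 17, 30626935 to 30875762, GRCm38.p6), had a level of 4.10 with A/J-12SM and 8.20 with A/J. The difference of -4.10 is 17.1-fold (A/J over A/J-12SM). Dnah11, an outer arm heavy chain of respiratory and nodal cilia whose loss disturbs left-right placement of organs in mice, had a level of 3.63 with A/J-12SM and 6.16 with A/J, 5.76-fold. Both were above the median of all genes with A/J and below it with A/J-12SM. Dnah17, also known from sperm, had 3.29 with A/J-12SM and 4.15 with A/J. Dnah5, which in the airway pairs with Dnah9 or Dnah11, had 3.14 with A/J-12SM and 4.16 with A/J. Dnah9 differed by -0.41, within the limit. Dnah5 and Dnah17 were below the median of all genes on both arrays. The cells from which the differences of these heavy chains came were not tested.

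The inner arm heavy chains, which shape the waveform, were lower in all 6 cases, 4 of them past the limit, but none had a level of 6 on either array. Dnah7a had a level of 2.55 with A/J-12SM and 4.28 with A/J, but a probe set it shares with Dnah7b and Dnah7c differed by 0.20. Dnah6 had 3.13 with A/J-12SM and 4.35 with A/J. Dnah14 had 3.14 with A/J-12SM and 4.33 with A/J. These 3 genes differed by -1.73, -1.22 and -1.19. Dnah2 differed by -1.01 at its brighter probe set, while its other probe set had 3.86 with A/J-12SM and 3.45 with A/J, in the opposite direction, and their mean differed by -0.30. Dnah1, needed for the sperm axoneme in mouse and human, differed by -0.33 and Dnah10 by -0.26. Over all 11 heavy chains the median was -1.01.

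The smaller dynein chains went both ways. Dnali1, the light intermediate chain of inner arms, was the only one of 5 past the limit, with a level of 4.17 with A/J-12SM and 5.63 with A/J. Dnaic1 (-0.46) and Dnaic2 (-0.03), the intermediate chains that hold the outer arm together, were within the limit. The light chain Dnal4 was higher with A/J-12SM by 0.45. Dnal1, a light chain that binds the outer arm motor, was also higher, with 5.90 with A/J-12SM and 5.60 with A/J. In all, 3 of these 5 smaller chains were lower by any amount, as were 11 of the 11 heavy chains.

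Of 5 genes for proteins that anchor the inner arms, 3 were lower past the limit. Cfap44 and Cfap43 form the tether of an inner arm, and Cfap44 had a level of 3.39 with A/J-12SM and 5.18 with A/J. Cfap43 differed by -1.08 and Cfap57, an inner arm adaptor, by -1.03, but a probe set that Cfap43 shares with Itprip differed by -0.01. Cfap100 (-0.08) and Cfap73 (0.20), partners in another anchoring complex, were within the limit. The members that help to assemble dynein in the cytoplasm, Cfap300 (-0.48), Spag1 (-0.42) and Cfap298 (-0.18), were within the limit.

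**Figure D2:**
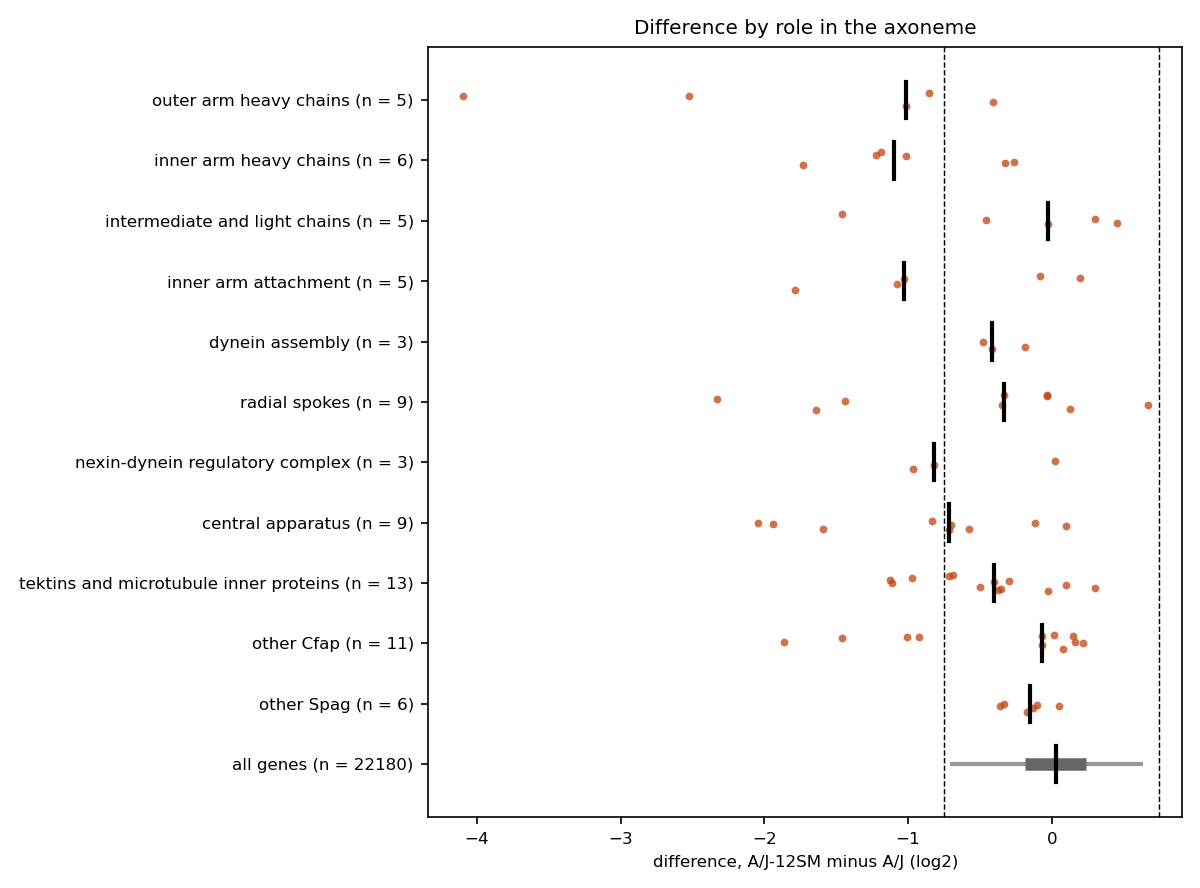
Difference of each member (x axis, A/J-12SM minus A/J, log2), by role, with the median as a bar; in the last row the thick line spans the 25th to the 75th percentile of all 22180 genes and the thin line their 5th to 95th percentiles, and dashed lines mark 0.75 in either direction. Both heavy chain groups lie wholly below 0, while the other Spag group lies within the limit.

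The radial spoke group was split. Cfap206, at the base of a spoke (chromosome 4, 34688574 to 34730263), had a level of 3.85 with A/J-12SM and 6.18 with A/J, 5.04-fold (A/J over A/J-12SM). Rsph1, a protein of the spoke head (chromosome 17, 31255019 to 31277296), had 4.38 with A/J-12SM and 6.02 with A/J, 3.12-fold. Rsph4a, of the same head, had 2.50 with A/J-12SM and 3.94 with A/J. These 3 were the members of the group past the limit. Rsph9 (0.13), Rsph6a (-0.03), a sperm paralog of Rsph4a, and Rsph14 (-0.03) had nearly equal levels on both arrays. Cfap61 differed by -0.35. The stalk proteins Rsph3a and Rsph3b differed by -0.33 and 0.67, the second being the highest difference of all members. They are close paralogs, the other probe set of Rsph3a differed by 0.51, and the level of each copy is uncertain.

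The nexin-dynein regulatory complex, which links neighbouring doublets, was lower in 2 of 3 genes. Drc1, its scaffold, had a level of 3.80 with A/J-12SM and 4.77 with A/J, and Drc7 had 4.07 with A/J-12SM and 4.89 with A/J. Drc3 differed by 0.03. Of the 9 genes of the central apparatus, 4 were lower past the limit. Spag17, a central pair projection protein, had 3.23 with A/J-12SM and 5.28 with A/J, but its other, dimmer probe set differed by 0.19. Spag6l had 3.23 with A/J-12SM and 5.17 with A/J, whereas its close paralog Spag6 differed by -0.12. Cfap69, which sperm and olfactory cilia use, had 3.82 with A/J-12SM and 5.41 with A/J. Spag16 differed by -0.83, and Cfap47 (-0.72), Cfap74 (-0.70) and Cfap46 (-0.58) lay just within the limit.

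Of 13 genes for tektins and other proteins that line the inside of the doublets, 3 were lower past the limit (23.1%, beside 4.28% of all genes). Tekt4 had a level of 3.70 with A/J-12SM and 4.82 with A/J, and Tekt2 had 3.87 with A/J-12SM and 4.98 with A/J. The other probe set of Tekt2 differed by -0.55. Cfap53, also required for left-right asymmetry, differed by -0.97. Tekt1 (-0.72), Tekt3 (-0.40) and Tekt5 (-0.03) stayed within the limit. Cfap20, which sits at the inner junction of doublets and is expressed widely, had 7.40 with A/J-12SM and 7.76 with A/J.

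Of the 11 remaining Cfap genes, 4 were lower and none higher past the limit, and the median was -0.07. Cfap65 (-1.87), known for male infertility, Cfap299 (-1.46), Cfap70 (-1.01) and Cfap97d1 (-0.92) were the 4, the last at levels of 1.81 with A/J-12SM and 2.73 with A/J. Cfap36 had 7.63 with A/J-12SM and 7.61 with A/J, and Cfap97 had 7.10 with A/J-12SM and 7.17 with A/J. Cfap410 (0.08), Cfap99 (0.15), Cfap97d2 (0.16) and Cfap58 (0.22) were within the limit with differences above 0. Of the 6 Spag genes that were not placed in an axonemal role group here, none was past the limit. They include Spag9, a scaffold of kinesin and kinase signalling (9.14 with A/J-12SM and 9.09 with A/J), Spag7 (6.87 with A/J-12SM and 6.97 with A/J), the spindle protein Spag5 (-0.33), and the epididymal defensin-like Spag11a (-0.13) and Spag11b (-0.36), which are close copies whose levels are uncertain. Without these 6 genes, 28 of 69 members were lower past the limit.

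A level of 6 on one array or both was reached by 10 members. Dnah8, Dnah11, Cfap206 and Rsph1 reached 6 with A/J alone, and all 4 were lower past the limit. Genes that reach 6 on 1 array alone differ in part through that choice. Cfap20, Cfap36, Cfap97, Cfap410, Spag7 and Spag9 reached 6 on both arrays, and their differences lay between -0.36 and 0.08. Over all genes with such a level, 3.91% were lower by more than 0.75.

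**Figure D3:**
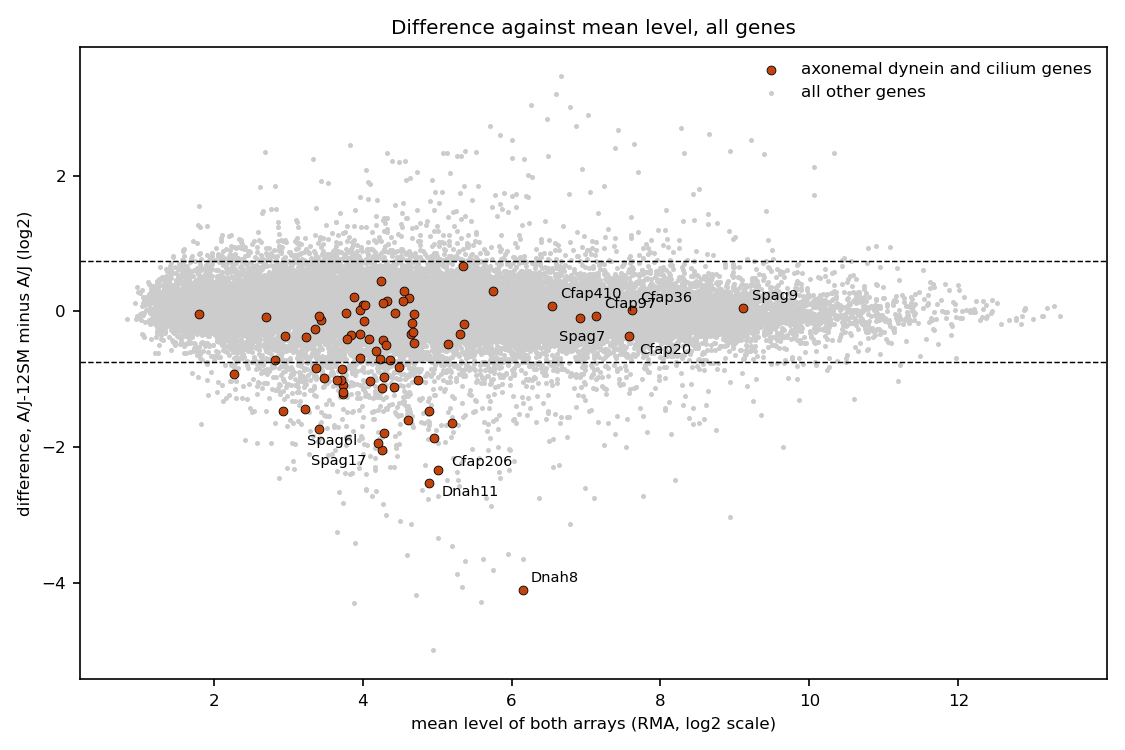
Difference of each gene (y axis, A/J-12SM minus A/J, log2) against its mean level on both arrays (x axis, RMA log2 scale), with the 75 members in colour over all genes in grey and dashed lines at 0.75 in either direction. Most members have low mean levels, Dnah8 lies at -4.10, and Spag9, Cfap36, Cfap97, Cfap410, Spag7 and Cfap20 lie near 0.

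Members that were lower past the limit were spread over the genome. Members lay on 19 chromosomes, and on 15 of these at least 1 member was lower past the limit. Chromosome 12 held Dnah11 and Dnal1, which differed in opposite directions (-2.53 and 0.30), and 27 of the 73 members elsewhere were lower past the limit. On chromosome 12 as a whole, 5.48% of 748 genes were. Dnah11 lies at 117877982 to 118199043 (GRCm38.p6), and its annotated span overlaps that of Cdca7l (117843475 to 117878712), a gene of the Myc pathway. Cdca7l had a level of 5.73 with A/J-12SM and 7.24 with A/J, a difference of -1.50. The next genes on either side, Rapgef5 and Sp4, differed by 0.34 and -0.35. Chromosome 12 comes from SM/J in A/J-12SM. Whether sequence differences from A/J change the probe signals of its genes was not tested. The neighbours of Dnah8 (1700097N02Rik at 0.06 and Glp1r at -0.48), of Cfap206 (Slc35a1 at -0.03 and Gm136 at -0.51) and of Rsph1 (Ubash3a at 0.06 and Slc37a1 at -0.16) were within the limit.

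Other axoneme genes, outside the symbol rule, were also often lower. Of 32 measured genes of a list of 39, 12 were lower and none higher past the limit, with a median of -0.56. Over all genes, 4.28% were lower past it. Only 2 of the 32 reached a level of 6 on either array, Gas8 and Nme7, and neither was lower. Hydin, a giant central pair protein, differed by -1.08, Ccdc65 of the nexin complex by -2.06, and Enkur by -1.94, but Gas8 (0.35), a nexin complex protein, and Nme7 (0.36), at levels of 6.36 and 6.25 with A/J-12SM, were higher. Hydin, Ccdc65 and Enkur were named after their values were seen. Of 13 dynein assembly factors, Dnaaf1 had a level of 4.67 with A/J-12SM and 6.70 with A/J, and Lrrc6 (-1.12) and Zmynd10 (-0.98), named after their values were seen, were the others past the limit. Ruvbl1 (-0.26) and Ruvbl2 (0.26), chaperones used in every cell, were within it. Of 13 genes for the accessory fibres and sheath of the sperm tail, 9 were lower past the limit (69.2%, beside 4.28% of all genes), with a median of -0.89. Oaz3, a spermatid gene, differed by -2.63 and Odf2, which centrosomes also use, by -0.86. Odf1, an outer dense fibre protein, had 11.58 with A/J-12SM and 11.71 with A/J, in the range of the adipocyte markers on both arrays. Male germ cell markers lay between 1.65 and 4.58 with A/J-12SM. Whether the Odf1 probe set reports Odf1 RNA was not tested, and its level is uncertain.

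Genes of transport that most cells use had medians near 0. Intraflagellar transport, the traffic that builds primary and motile cilia alike, had a median of -0.07 over 23 genes, with Ift80 (-0.76, named after its value was seen) past the limit. Ift57 (0.32), Ift52 (0.31) and Ift27 (-0.50) had the largest differences at a level of at least 6. Cytoplasmic dynein and dynactin, the cell's general minus-end motor, had a median of -0.01 over 18 genes and none past the limit. Dync2li1 differed by 0.44, Dctn5 by -0.34 and Dctn1 by 0.32. Over all genes, 4.28% were lower and 2.86% higher past the limit, so 1 of 23 and none of 18 are near those shares. Of 14 transcription factors of ciliated cells and spermatocytes, 2 were lower past the limit (14.3%, beside 4.28% of all genes). These were Sox30 (-1.38) and Mybl1 (-0.95), both of meiotic germ cells. The median was 0.05, and 8 of the 14 were higher by any amount, Trp73 the most (0.68). Crem, the gene of the CREM factor, differed by -0.22. Rfx1, Rfx2 and Foxj2 differed by 0.25, 0.23 and 0.15. Sox30, Mybl1, Trp73 and Crem were named after their values were seen.

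**Figure D4:**
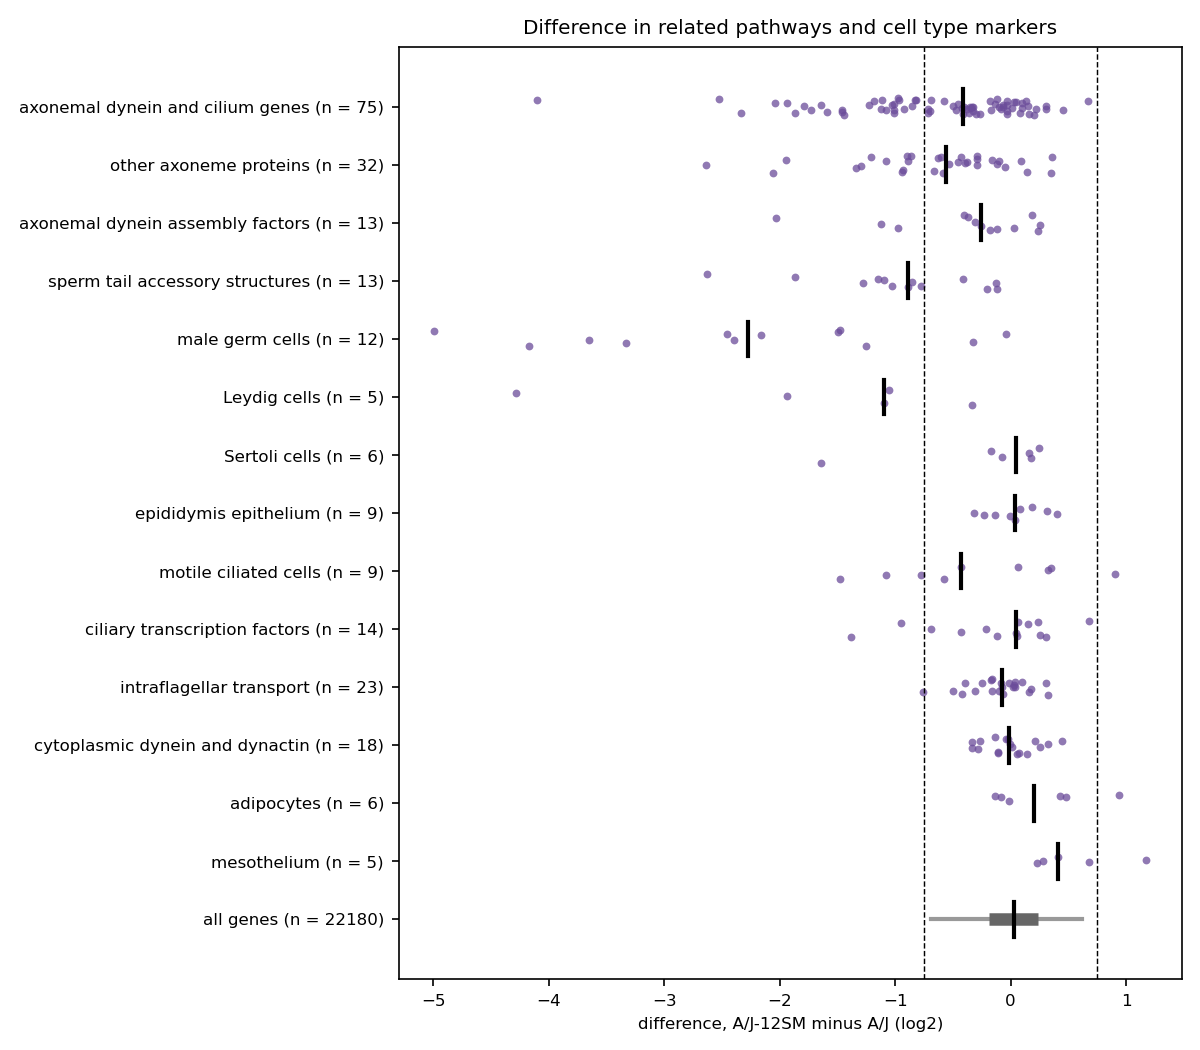
Difference of each gene (x axis, A/J-12SM minus A/J, log2) for the 75 members, related gene lists and cell type markers, with the median as a bar; in the last row the thick line spans the 25th to the 75th percentile of all genes and the thin line their 5th to 95th percentiles. Male germ cell markers have the lowest median (-2.28), and cytoplasmic dynein and dynactin lie around 0.

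Markers of male germ cells were also mostly lower with A/J-12SM. Of 12 measured markers of 14, 10 were lower past the limit (83.3%, beside 4.28% of all genes) and none was higher. The median was -2.28. This list, like the others, was chosen with earlier results of these data known, so its share only describes it. Mael, of the piRNA pathway, had a level of 2.46 with A/J-12SM and 7.45 with A/J. Smcp, of the sperm mitochondrial capsule, had 2.63 with A/J-12SM and 6.81 with A/J, and Tnp2, a spermatid transition protein, had 3.79 with A/J-12SM and 7.44 with A/J. The sum of the 12 levels, taken on the linear scale, was 143 with A/J-12SM and 855 with A/J. On the A/J-12SM array the 12 markers lay between 1.65 and 4.58, and on the A/J array between 4.06 and 7.45. Tex101 (-0.33) and Hspa1l (-0.04) were the 2 within the limit. The part of germ cell RNA in the difference of the members was not tested.

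Markers of other cells differed in direction. Of 5 measured Leydig cell markers, 4 were lower past the limit, beside 4.28% of all genes. Their summed linear level was 69.7 with A/J-12SM and 340 with A/J. Cyp17a1, an androgen enzyme, had 3.44 with A/J-12SM and 7.73 with A/J. Star, which moves cholesterol into mitochondria, differed by -0.33. Of 6 Sertoli cell markers, Cldn11 (-1.64) alone was lower past the limit (16.7%, beside 4.28% of all genes). Inhbb differed by -0.08 and the median was 0.04. Over all genes, 4.28% were lower and 2.86% higher past the limit, and none of 9 epididymis markers was, which is near those shares. The epididymis markers (median 0.04, Wfdc10 -0.32, Lcn5 0.19) summed to 129 with A/J-12SM and 131 with A/J. Their median levels were 3.09 with A/J-12SM and 3.23 with A/J, and none reached 6. These near-equal sums may therefore be background in part. Markers of motile ciliated cells were mixed. Of 9, 3 were lower past the limit (33.3%, beside 4.28% of all genes). These were Dynlrb2 (-1.47), Tmem212 (-1.08) and Deup1 (-0.78), named after their values were seen. Tppp3, a tubulin-binding protein, was higher past the limit, with 9.95 with A/J-12SM and 9.05 with A/J. The defining factor Foxj1 had 3.40 with A/J-12SM and 3.83 with A/J, and Mcidas 4.71 with A/J-12SM and 4.65 with A/J. The summed linear level of the 9 was 1098 with A/J-12SM and 684 with A/J, a sum that Tppp3 set. Without it, the other 8 summed to 111 with A/J-12SM and 155 with A/J, and the median difference of all 9 was -0.43. Of 5 mesothelium markers, Upk1b (1.17) alone was higher past the limit, as were 2.86% of all genes. The other 4 differed by 0.23 to 0.68, Msln by 0.68 and Wt1 by 0.28, and 11882 of all 22180 genes were higher by any amount. The part of these cells in the difference of the members was not tested.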

How the data were processed

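Epididymal fat RNA, 100 ng of a pool of 3 males per strain, was hybridized to 1 Affymetrix Mouse Gene ST 2.0 array each. The authors made the deposited log2 levels with RMA-sketch in Affymetrix Expression Console 1.3.0, which corrects background, equalizes the arrays and summarizes probes, so that a shift of most genes would be removed; the genome build and probe annotation behind it are not given in the sources used here. Of 41345 probe sets, 23521 named 1 gene in the platform annotation, 1820 several and 16004 none; the last 2 kinds were left out. Symbols were updated by gene identifier to RefSeq (GRCm38.p6), and the symbol of every member was the same before and after. The brightest probe set by mean level stood for a gene; 5 of 75 members had 2. Of 81 RefSeq symbols that fit the rule, 6 were not analysed here. With 1 array per strain there was no test; the number of arrays limits the precision.

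Members, lists and named genes were chosen with earlier results of these data known. Named were members past 0.75 whose brighter array had a level of 6 or more, chromosome 12 members, all heavy chains and the 2 members of each role with the highest level with A/J; other members are named where their group is described. Of each list, up to 3 of the largest differences at that level were named, or otherwise the 2 genes with the highest level. A comparison of heavy chain protein sequences was planned and not run. Alternatives were the reading of the symbol rule, the probe set, scaling (centring, loess with span 0.3, quantile), level filters and the limit. Counting was tested on simulated data. Python 3.11.15, pandas 2.3.3, NumPy 2.4.6, statsmodels 0.14.6 and matplotlib 3.10.9 were used.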

Additional observations from a re-analysis of the deposited data

How the results depend on the processing

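The count of 28 lower members stayed within 1.5 times (27 to 32) under several changes. These were another reading of the symbol rule, probe sets averaged or counted singly, and rescaled arrays. Leaving out the Spag genes not placed in an axonemal role group, or the chromosome 12 members, also kept it there. Limits of 0.5 and 1.0 gave 33 (8.58% of all genes) and 22 (2.34% of all genes). With the limit of 0.5, 1 member was higher, as were 8.35% of all genes. Filters left fewer members: with a brighter level of 5 or more, 11 of 22 were lower (median -0.74, 4.64% of all genes at that level), at 6 it was 4 of 10 (median -0.23, 3.91%), and at a mean level of at least 5 it was 3 of 14 (median -0.14, 3.51%). Members that reach a level on the A/J array alone differ in part through that filter. Of the 29 members that the naming rule picked, Dnah2 alone left its side of the limit (-0.30 as a mean of probe sets). The other members were not followed singly. Loess scaling gave 32 lower members, so members outside these 29 crossed the limit. At minimum levels of 5 and 6 the median of motile ciliated cell markers turned to 0.061 (2 genes) and 0.90 (1 gene), and at 6 that of other axoneme proteins turned to 0.35 (2 genes). No paired analysis was possible because each strain has 1 array. No detection value was used, and 10 members on the A/J-12SM array and 22 on the A/J array had a level at or above the median of all genes.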

Other observations

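3 probe sets that named several genes included a symbol of the axonemal dynein and cilium genes and were not counted above. The one shared by Dnah7a, Dnah7b and Dnah7c had a level of 4.55 with A/J-12SM and 4.35 with A/J, a difference of 0.20, whereas the probe set of Dnah7a alone differed by -1.73. The one shared by Cfap43 and Itprip had 5.14 with A/J-12SM and 5.15 with A/J, whereas that of Cfap43 alone differed by -1.08. The one shared by Cfap54 and Gm872 differed by -0.44.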
